A study of Mus musculus with 6 samples.

Results

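Fibroblast growth factors (FGFs) are signalling proteins that bind heparan sulfate and FGF receptors, which are tyrosine kinases at the cell surface. Some of them, such as Fgf1, Fgf2, Fgf9, Fgf16 and Fgf18, are released and act on neighbouring cells, where the receptors switch on the RAS-MAPK cascade. A separate branch, the FGF homologous factors Fgf12 and Fgf13, stays inside the cell and binds voltage-gated sodium channels instead of FGF receptors. FGF-binding proteins such as Fgfbp1 and Fgfbp3 are secreted carriers that release FGFs from the matrix. In the heart this family is known for roles in the growth of myocytes and vessels, in repair and, through the homologous factors, in conduction.

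The genes described here are 10 members of this system, matched by name among 43629 named gene rows of the count table: 7 FGF genes, the receptor gene Fgfr1 and the carrier genes Fgfbp1 and Fgfbp3. They were chosen by name, with their counts in these same old and young hearts already known, so their differences between ages are given as a description, and a count of members past a threshold stands only beside the share over all genes. Total RNA of whole heart tissue was sequenced from 3 old (22 months) and 3 young (2 months) male C57BL/6 mice, all fed normal chow and none given a genotype or treatment in the labels. The hearts are described as independent biological replicates. Libraries held 13673856 to 15583364 counted reads, and values per gene are CPM, counts scaled to a library size adjusted by TMM normalisation.

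The old hearts were more varied than the young ones: pairs of old libraries correlated across genes with r of 0.958 to 0.978, and pairs of young libraries with r of 0.985 to 0.988 (log2 CPM; genes are not independent replicates). On the first principal component old 1 was the old library nearest to the young ones. Heart markers were abundant in every library, with ventricular cardiomyocyte genes summing to 48500 to 54700 CPM in old and 57100 to 64200 CPM in young hearts. Of those 9 markers 2 were called higher and 3 lower (edgeR adjusted p under 0.05). For this and the lists below, the share over all 14413 tested genes was 8.72% called higher and 6.36% called lower. Atrial markers summed to 385 CPM in the library old 1, against 67.5 and 131 CPM in old 2 and old 3 and 102 to 184 CPM in young hearts, and none of 7 tested was called. Leukocyte markers summed to 220 to 238 CPM in old and 126 to 139 CPM in young hearts, with 3 of 8 tested called higher. Endothelial markers had 3 of 9 called lower (2650 to 3100 CPM in old, 3020 to 3500 CPM in young), fibroblast markers 2 of 8 (608 to 1400 CPM in old, 968 to 1390 CPM in young) and pericyte and smooth muscle markers 2 of 7 (743 to 1160 CPM in old, 1110 to 1340 CPM in young). Schwann and neuronal markers summed to 15.7 to 25.7 CPM in old and 11.9 to 15.7 CPM in young hearts, adipocyte markers to 37.5 to 51.2 CPM in old and 32.3 to 34.2 CPM in young, epicardial markers to 6.86 to 19.1 CPM in old and 6.24 to 9.90 CPM in young, and erythroid markers to 455 to 1210 CPM in old and 928 to 981 CPM in young hearts. Tested were 4 of 6 Schwann and neuronal, 1 of 6 adipocyte, 1 of 6 epicardial and 5 of 5 erythroid markers. Of these 4 lists 1 erythroid gene was called, and it was lower. The exact two-sided permutation p of the 10 sums lay between 0.1, the smallest that 3 against 3 allows, and 0.9. No marker of these lists was at 0 in all libraries. Whether shifts in these cell types take part in the differences below was not tested, and in whole tissue fewer cells of a type and less RNA per cell cannot be told apart.

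The carrier gene Fgfbp3 was the member with the largest difference between ages. Its protein binds FGFs in the extracellular space (ENSMUSG00000047632, GRCm38 chromosome 19, 36917550 to 36919615, minus strand). The counts were 34, 30 and 15 in old hearts, against 111, 108 and 109 in young hearts. As CPM these were 2.08, 2.13 and 1.11 in old and 7.63, 7.33 and 7.02 in young hearts. All 3 old hearts lay far under the lowest young heart, and the young hearts were close together. The mean was 1.77 ± 0.573 CPM in old and 7.32 ± 0.306 CPM in young hearts (SD, n = 3 each). The log2 fold change of old over young was −2.03 ± 0.27 (SE of edgeR's fit), which is 0.245 of the young level. With each library left out in turn it stayed between −2.17 and −1.80.

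The DNA just upstream of the start of Fgfbp3, and of an internal start of Fgf13, is shown because, among the members with every old heart under every young heart, these had the most negative log2 fold changes. The windows are the 250 bases before a RefSeq gene start on GRCm38.p6, at chr19:36919600-36919849 (minus strand) for Fgfbp3 and at chrX:59134437-59134686 (minus strand) for Fgf13. Both are written 5′ to 3′ on the gene's strand. Capitals mark 3 motifs searched on both strands. The first motif was CCAAT, the second was TATAAA, and the third was GGGCGG. No marked matches overlap.
Fgfbp3: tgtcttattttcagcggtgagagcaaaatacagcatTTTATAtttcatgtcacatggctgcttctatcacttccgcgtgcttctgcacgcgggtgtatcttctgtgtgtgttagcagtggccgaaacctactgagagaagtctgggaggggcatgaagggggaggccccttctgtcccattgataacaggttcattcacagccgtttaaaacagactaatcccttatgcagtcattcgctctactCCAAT
Fgf13: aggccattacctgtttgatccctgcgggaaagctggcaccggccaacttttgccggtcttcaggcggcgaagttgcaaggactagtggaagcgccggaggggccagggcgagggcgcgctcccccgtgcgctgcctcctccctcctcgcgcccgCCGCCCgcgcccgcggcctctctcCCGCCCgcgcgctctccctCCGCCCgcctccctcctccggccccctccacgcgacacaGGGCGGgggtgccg
The Fgfbp3 window held 1 CCAAT, in its last 5 bases, 1 TATAAA on the opposite strand and no GGGCGG. The last 16 bases of the window lie in the exon that GENCODE M21 gives to the gene. The Fgf13 window held 4 matches of GGGCGG, 3 of them on the opposite strand, and neither other motif. Across 32851 such windows in the mouse genome 33.8% held CCAAT, 12.4% TATAAA and 32.7% GGGCGG. The CpG dinucleotide occurred 8 times in the Fgfbp3 window and 31 times in the Fgf13 window, against a median of 6. Fgf13 has 4 such windows, with 2 to 33 CpG. The one shown is the CpG-rich window that holds no base of the gene's own exons, and gene counts do not tell which start was used. Of the 10 genes 7 had a window in the RefSeq table.

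Among the released factors, Fgf1 was by far the most abundant member. FGF1 can bind every FGF receptor and leaves cells without a classical signal peptide (ENSMUSG00000036585, chromosome 18, 38838673 to 38929472). It was measured at 134, 99.5 and 108 CPM in old hearts, against 136, 133 and 133 CPM in young hearts. Old 2 and old 3 lay under every young heart, while old 1 lay within the young range, so the ages overlapped. The log2 fold change was −0.24 ± 0.14. It was −0.37 without old 1, the lowest of the values with 1 library left out, and −0.15 was the highest.

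Fgf16 and Fgf9 belong to one subfamily, and Fgf16 is known as a factor of heart muscle cells. Fgf16 (ENSMUSG00000031230, chromosome X, 105764279 to 105774939) had 3.62, 3.69 and 4.01 CPM in old hearts, against 4.81, 5.02 and 5.73 CPM in young hearts. Every old heart lay under every young heart, with a log2 fold change of −0.46 ± 0.21. Fgf9 (ENSMUSG00000021974, chromosome 14, 58070547 to 58112720) had 6.62, 8.58 and 5.42 CPM in old hearts, against 7.49, 6.17 and 5.47 CPM in young hearts. The ages overlapped fully, and the log2 fold change of Fgf9 was 0.11 ± 0.23. Its sign depended on single libraries, since the values with 1 library left out ran from −0.08 to 0.25. The difference between Fgf16 and Fgf9 was not tested.

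Fgf18 and Fgf2 were scarce. Fgf18, a factor of bone and lung development (ENSMUSG00000057967, chromosome 11, 33117430 to 33147400), had 22, 6 and 12 counts in old hearts, against 25, 16 and 15 counts in young hearts. Its ages overlapped, and the log2 fold change was −0.48 ± 0.47. Without old 1 it was −0.93, about as far from the value with all libraries as the SE.

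Fgf2, the basic FGF, is a growth factor for vessels and fibroblasts (ENSMUSG00000037225, chromosome 3, 37348346 to 37410108). It had 6, 5 and 10 counts in old hearts, against 8, 10 and 16 counts in young hearts. The sums were 21 counts in old (95% exact Poisson interval 13 to 32.1) and 34 counts in young hearts (23.5 to 47.5), intervals for counting error only that overlap. The log2 fold change of −0.64 ± 0.50 became −1.05 without old 3. In GENCODE M21, Fgf2 shares 640 of its 6782 exon bases with Nudt6, a gene on the opposite strand. Whether reads were counted by strand is not given in the sources used here, so reads in that stretch may not be separable. Nudt6 had 14.5, 7.73 and 8.83 CPM in old hearts, against 15.9, 13 and 13.9 CPM in young hearts. Its log2 fold change was −0.45 ± 0.24 (edgeR adjusted p = 0.217), and −0.78 without old 1 (edgeR adjusted p = 0.00473). The antisense gene Fgf2os, which shares no exon bases with Fgf2, had 6, 0 and 5 counts in old hearts, against 0, 0 and 0 counts in young hearts.

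The homologous factors were unequally expressed. Fgf13, which binds sodium channels and microtubules (ENSMUSG00000031137, chromosome X, 59062145 to 59568071), had 17.6, 17.7 and 16.6 CPM in old hearts, against 28.7, 24.4 and 24.0 CPM in young hearts. All old hearts lay under all young hearts, and the old ones were tightly grouped. The log2 fold change was −0.57 ± 0.14, or 0.674 of the young level, and ran from −0.64 to −0.49 with 1 library left out. Fgf12, an abundant homologous factor of human ventricle, was near the limit of detection in these mouse hearts (ENSMUSG00000022523, chromosome 16, 28160098 to 28753068). It had 3, 0 and 1 counts in old hearts, against 4, 1 and 3 counts in young hearts. The sums were 4 counts in old (95% exact Poisson interval 1.09 to 10.2) and 8 counts in young hearts (3.45 to 15.8), and a difference was not detectable at this depth.

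The receptor gene Fgfr1 was the member that was higher in old hearts by the widest margin. It encodes a receptor for many released FGFs (ENSMUSG00000031565, chromosome 8, 25513654 to 25575718). It had 56.3, 52.3 and 59.8 CPM in old hearts, against 31.0, 42.5 and 42.4 CPM in young hearts. Every old heart lay above every young heart, and the library young 1 lay apart from the other young hearts. The log2 fold change was 0.54 ± 0.15, a level 1.45 times that of young hearts. Without young 1 it was 0.40, and 0.61 was the highest value with 1 library left out. The antisense gene Gm16159 shares 164 of the 9875 exon bases of Fgfr1 and had 5, 1 and 1 counts in old hearts, against 0, 2 and 1 counts in young hearts.

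Fgfbp1, the other carrier, was nearly absent (ENSMUSG00000048373, chromosome 5, 43978858 to 43981779). It had 4, 0 and 0 counts in old hearts, against 0, 1 and 0 counts in young hearts. The 4 counts of the old hearts all came from old 1, so no difference can be read from them.

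**Figure D1:**
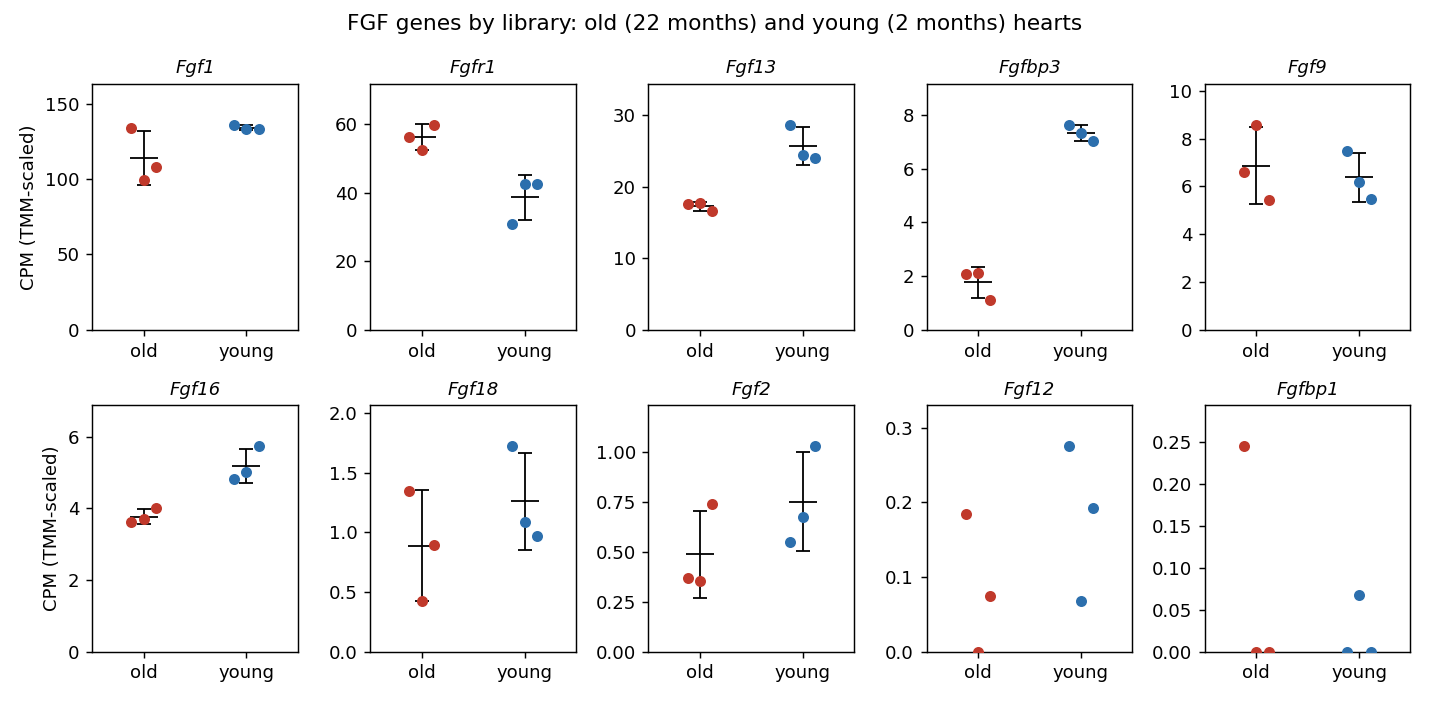
CPM of the 10 FGF genes in each library, old hearts left and young hearts right; points are libraries and bars the mean ± SD of 3, drawn for genes with enough counts to be tested. Fgfbp3, Fgf13 and Fgf16 have all old hearts under all young hearts, Fgfr1 has them above, and the ages overlap in the others. The vertical scale starts at 0 and differs between panels.

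Of the 10 genes 8 had enough counts for the fit over all genes, and Fgf12 and Fgfbp1 did not. Of these 8, 3 were past an edgeR adjusted p of 0.05 over 14413 genes, 1 higher and 2 lower. Of all tested genes 15.1% passed in either direction, 8.72% higher and 6.36% lower in old hearts. The ages did not overlap in 4 members, 1 higher and 3 lower, where 37.3% of all tested genes had ages without overlap (18.8% higher, 18.4% lower). Since the members were chosen with this comparison known, nothing is read from these counts.

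**Figure D2:**
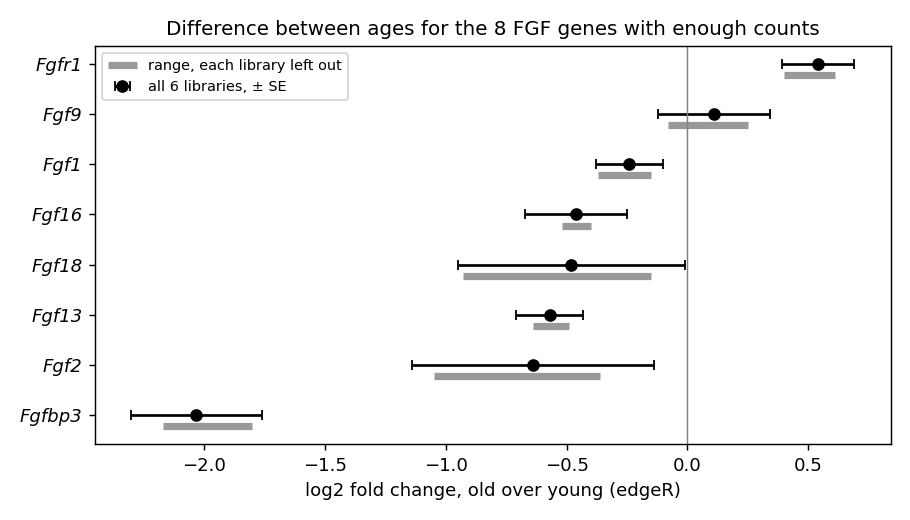
Log2 fold change of old over young hearts for the 8 FGF genes with enough counts. Black points show edgeR's estimate from all 6 libraries with its SE, and grey bars the range of estimates with each library left out in turn. Fgfbp3 lies at −2.03, far below the others; only the grey bar of Fgf9 crosses 0.

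Levels of different genes can be compared only per length, for which the authors' FPKM (fragments scaled to transcript length and library size) were used. In old hearts the order was Fgf1 (23.3 ± 3.45 FPKM), Fgfr1 (6.61 ± 0.419), Fgf13 (4.12 ± 0.144), Fgf16 (2.19 ± 0.127), Fgf9 (1.54 ± 0.367), Fgfbp3 (0.957 ± 0.309) and Fgf18 (0.713 ± 0.365; SD, n = 3 for each). In young hearts it was Fgf1 (27.6 ± 0.47 FPKM), Fgf13 (6.14 ± 0.649), Fgfr1 (4.56 ± 0.77), Fgfbp3 (3.97 ± 0.185), Fgf16 (3.02 ± 0.263), Fgf9 (1.44 ± 0.237) and Fgf18 (1.02 ± 0.331). Thus Fgfr1 stood above Fgf13 in old hearts and below it in young hearts, and Fgfbp3 stood below Fgf16 and Fgf9 in old hearts and above both in young hearts. Neighbours whose libraries overlapped were Fgfbp3 and Fgf18 in old hearts, and in young hearts Fgfr1 and Fgfbp3 as well as Fgf9 and Fgf18. The other 3 members had no FPKM row. Their CPM per kilobase of GENCODE M21 exon was 0.072 in old and 0.111 in young hearts for Fgf2, 0.0139 in old and 0.0288 in young for Fgf12, and 0.0361 in old and 0.00999 in young for Fgfbp1. On that scale Fgf1 had 20.8 in old and 24.5 in young hearts.

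The tested neighbours of Fgfbp3 on chromosome 19 differed in sign. Tnks2, a tankyrase gene ending 24072 bases to its left, had 53.4, 56.4 and 53.1 CPM in old hearts, against 62.9, 68.2 and 68.7 CPM in young hearts. Every old heart lay under every young heart, but Tnks2 missed the threshold, with a log2 fold change of −0.30 ± 0.12 (edgeR adjusted p = 0.112; 0.046 without old 1). Btaf1, which encodes a regulator of the TATA-binding protein, starts 6463 bases to the right. It had 28.5, 48.9 and 56.7 CPM in old hearts, against 23.6, 25.2 and 22.5 CPM in young hearts. It rose, with a log2 fold change of 0.91 ± 0.23 (edgeR adjusted p = 0.0279), opposite in sign to Fgfbp3. That call of Btaf1 was lost without any single library other than old 1 (edgeR adjusted p = 0.0712 to 0.112) and on the FPKM scale (limma adjusted p = 0.0631 to 0.0665).

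Genes whose pattern over the 6 libraries was most like that of Fgfbp3 were looked for among 13604 genes with a mean of at least 1 CPM. By Pearson's r of log2(CPM + 0.5) the first was Nudt3 (0.9984), which encodes an inositol phosphate hydrolase. Next came Srl (0.9976), the sarcoplasmic reticulum protein sarcalumenin, the homeodomain gene Hopx (0.997), Tbc1d16 (0.9965) and Lamtor3 (0.9958). These r values rest on 6 points that share their libraries and the difference between ages, and are a description. All 5 genes had lower values in every old heart, as 18.4% of all tested genes did. Their log2 fold changes were −0.61, −0.84, −0.71, −0.85 and −0.50 in this order. Each is nearer to 0 than the −2.03 of Fgfbp3.

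Genes of the pathway outside the 10 members were tested as 7 lists with 107 genes, of which 77 had enough counts. Of these, 4 rose and 5 fell in old hearts, 11.7% together against 15.1% of all genes. Their median log2 fold change was −0.16, against 0.02 over all genes tested. Without old 1 the pathway counts were 12 higher and 24 lower, beside 2961 higher and 2609 lower over all genes. Without old 2 they were 5 and 4 (938 and 603 over all genes), and without old 3 they were 3 and 3 (598 and 321 over all genes). Without young 1 and without young 2 they were 2 and 0, and without young 3 they were 2 and 1. Over all genes, 355 were called higher and 184 lower without young 1. The corresponding numbers were 350 and 190 without young 2, and 393 and 226 without young 3.

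No other FGF or receptor gene passed the test. Fgf11, a further homologous factor, had 4.47, 4.40 and 4.82 CPM in old hearts, against 6.19, 7.19 and 5.73 CPM in young hearts (log2 fold change −0.48 ± 0.20, edgeR adjusted p = 0.126). Every old heart lay under every young heart, as in its relative Fgf13, but Fgf11 missed the threshold. Fgf14 (0.09 ± 0.44) and the keratinocyte growth factor Fgf7 (0.65 ± 0.47) had overlapping ages. Of the 15 other FGF genes 4 had no count in any library, and 3 were tested.

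Fgf10, a factor of mesenchyme and developing heart, was chosen after its values were seen. It had 27, 5 and 20 counts in old hearts, against 2, 2 and 2 counts in young hearts, and did not reach the filter on low counts. With no such filter its log2 fold change was 3.04 (edgeR adjusted p = 0.0039). Old 2 gave fewer reads of Fgf10 than old 1 and old 3. Fgf17, also chosen after its values were seen, had 6, 14 and 4 counts in old hearts, against 3, 1 and 1 counts in young hearts (edgeR adjusted p = 0.117 with no filter).

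Among the receptors, Fgfr3 had 33.3, 87.9 and 90.3 CPM in old hearts, against 37.2, 39.1 and 41.5 CPM in young hearts. Old 2 and old 3 lay above all young hearts, while old 1 lay under them. The log2 fold change was 0.84 ± 0.31 (edgeR adjusted p = 0.0955). The range over the alternatives ran from 5.93e-05 without old 1 to 0.299 without old 3, and Fgfr3 passed with DESeq2 (DESeq2 adjusted p = 0.0315) and with no filter on low counts (edgeR adjusted p = 0.00956). Fgfr4, which liver uses to sense bile acid signals, had 3, 18 and 17 counts in old hearts, against 1, 0 and 0 counts in young hearts. In Fgfr4 too old 1 was nearest to the young hearts. It was below the filter, and with no filter its edgeR adjusted p was 0.00218. Fgfrl1, a receptor without a kinase domain, had a log2 fold change of 0.05 ± 0.16 (edgeR adjusted p = 0.854). Fgfr2 had 0.552, 0.213 and 0.668 CPM in old hearts, against 0.481, 0.407 and 0.772 CPM in young hearts. Atrial markers were highest in old 1, as given above, and their part in the position of that library was not tested. None of the 11 tested genes of this list, which holds syndecans and glypicans as co-receptors, passed. Its median log2 fold change was −0.17. Sdc1 (−0.50 ± 0.19, edgeR adjusted p = 0.101) and Gpc3 (−0.75 ± 0.31, edgeR adjusted p = 0.130) had the next smallest p.

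**Figure D3:**
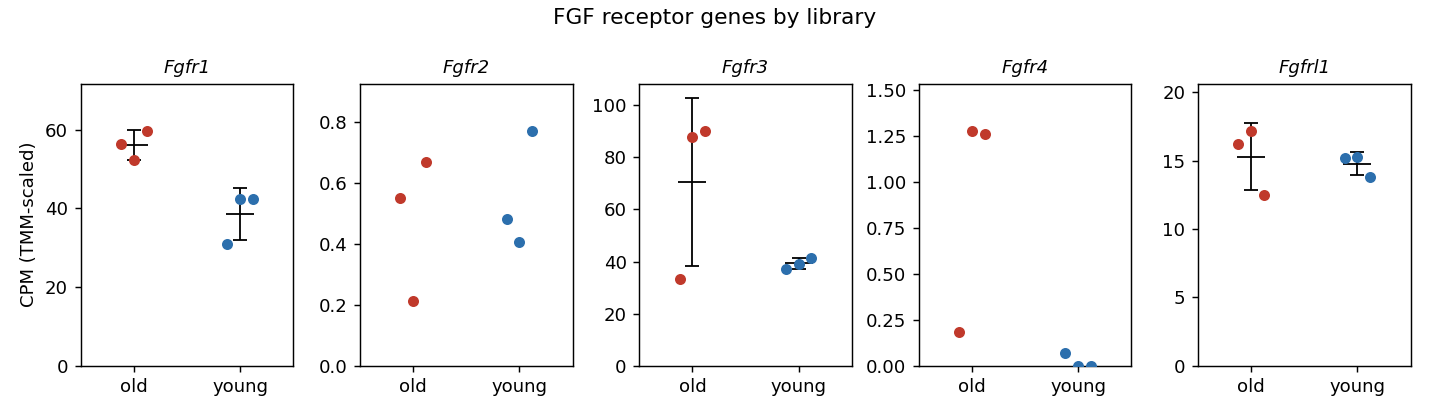
CPM of the FGF receptor genes in each library, old hearts left and young hearts right; points are libraries, and bars the mean ± SD of 3 for genes with enough counts to be tested. Fgfr1 is higher in all 3 old hearts, whereas Fgfr3 is at 87.9 and 90.3 CPM in old 2 and old 3 and at 33.3 CPM in old 1.

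In the export list S100a13 rose; its protein helps to release FGF1 from cells. It had 47.9, 71.6 and 59.2 CPM in old hearts, against 36.4, 39.6 and 37.3 CPM in young hearts (log2 fold change 0.66 ± 0.16, edgeR adjusted p = 0.0251). The other 3 tested genes of this list did not pass, Anxa2 (0.36 ± 0.13) and Tec (0.32 ± 0.19) among them. The median of the list was 0.34. The call of S100a13 was kept without old 1 and lost without any other single library (edgeR adjusted p = 0.0535 to 0.114).

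Of 19 adapters and cascade members, which carry the receptor signal to MAP kinases, Gab1 fell and 18 did not pass, with a median of −0.16. The docking protein gene Gab1 had 35.1, 41.3 and 39.0 CPM in old hearts, against 54.6, 49.4 and 53.2 CPM in young hearts (−0.45 ± 0.12, edgeR adjusted p = 0.0401). Frs2, the adapter that FGF receptors use, had 33.6, 49.1 and 64.7 CPM in old hearts, against 35.4, 31.9 and 32.1 CPM in young hearts (0.57 ± 0.21, edgeR adjusted p = 0.0990; 0.0014 without old 1). Old 1 lay within the young range of Frs2. The phosphatase gene Ptpn11 had −0.43 ± 0.19 (edgeR adjusted p = 0.146; 0.00127 without old 1). The call of Gab1 was lost without old 3 or any young library (edgeR adjusted p = 0.0964 to 0.154) with the replicate block (edgeR adjusted p = 0.0812) and on log2(FPKM + 1) and log2(FPKM + 0.1) without a minimum (limma adjusted p = 0.0505 and 0.0518).

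Feedback and target genes went both ways. FGF signalling induces them, though many other signals do so as well. Of 17 tested, Myc and Ier3 rose, Il17rd and Spred2 fell and 13 did not pass, with a median of −0.31. The transcription factor gene Myc had 12.3, 19.6 and 19.1 CPM in old hearts, against 8.38, 4.27 and 5.86 CPM in young hearts (1.46 ± 0.27, edgeR adjusted p = 0.0101). The early response gene Ier3 had 37.0, 45.2 and 32.4 CPM in old hearts, against 22.3, 17.5 and 20.2 CPM in young hearts (0.93 ± 0.16, edgeR adjusted p = 0.00793).

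Both genes that fell encode inhibitors of the pathway. Il17rd, also called Sef, had 10.2, 7.16 and 7.79 CPM in old hearts, against 14.9, 16 and 16.3 CPM in young hearts (−0.90 ± 0.18, edgeR adjusted p = 0.0124). Spred2, an inhibitor of RAF activation that was named after its values were seen, had 15.7, 16.6 and 18.3 CPM in old hearts, against 28.9, 26.7 and 23.9 CPM in young hearts (−0.65 ± 0.14, edgeR adjusted p = 0.0162). Libraries of the 2 ages did not overlap in any of these 4 genes, as in 37.3% of all tested genes. The 4 genes were called by the same comparison, so nothing is read from the lack of overlap. Leaving out single libraries ended the call of Ier3 without young 2, of Myc without young 3, of Spred2 without young 1 or young 2 and of Il17rd without old 3 or any young library (edgeR adjusted p = 0.0515 to 0.0873).

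Enzymes of heparan sulfate, the sugar chain that FGFs need to bind their receptors, had 2 of 16 tested genes lower and none higher, with a median of −0.36. The log2 fold change was below 0 in 11 and above 0 in 5. It was largest for Hpse, named after its values were seen, which did not pass (1.54 ± 0.47, edgeR adjusted p = 0.0563). Ext1, a polymerase of the chain, had 18.4, 15.1 and 16.7 CPM in old hearts, against 26.4, 25.9 and 29.4 CPM in young hearts (−0.70 ± 0.14, edgeR adjusted p = 0.0120). Hs2st1, a sulfotransferase, had 7.91, 5.11 and 4.30 CPM in old hearts, against 11.5, 9.70 and 10.1 CPM in young hearts (−0.85 ± 0.24, edgeR adjusted p = 0.0430). In both genes all old hearts lay under all young hearts, as in 18.4% of all tested genes. Sulf2, which removes sulfate from the chain, had 63.3, 39.9 and 53.9 CPM in old hearts, against 26.5, 36.4 and 37.7 CPM in young hearts (0.64 ± 0.20, edgeR adjusted p = 0.0562). Its adjusted p ranged from 0.0136 with no filter on low counts to 0.201 without young 1, and Sulf2 also passed with DESeq2 (DESeq2 adjusted p = 0.0225), without old 1 (edgeR adjusted p = 0.049) and without old 2 (edgeR adjusted p = 0.0269). The call of Ext1 ended without any one of the young libraries (edgeR adjusted p = 0.0541 to 0.0692). That of Hs2st1 ended without any single library other than old 1 (edgeR adjusted p = 0.101 to 0.147) and in limma on log2(FPKM + 1) and log2(FPKM + 0.1) without a minimum (limma adjusted p = 0.0527 and 0.0548).

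Sodium channel subunits, the partners of Fgf13 and Fgf12, had 1 of 7 tested genes higher and none lower, with a median of 0.05. Scn4b, an auxiliary subunit, had 22.9, 29.3 and 20.8 CPM in old hearts, against 9.21, 13.9 and 12.1 CPM in young hearts (1.05 ± 0.20, edgeR adjusted p = 0.00980; 0.0527 without young 1). Scn4a, a channel of skeletal muscle, had a log2 fold change of 0.28 ± 0.16 (edgeR adjusted p = 0.273).

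**Figure D4:**
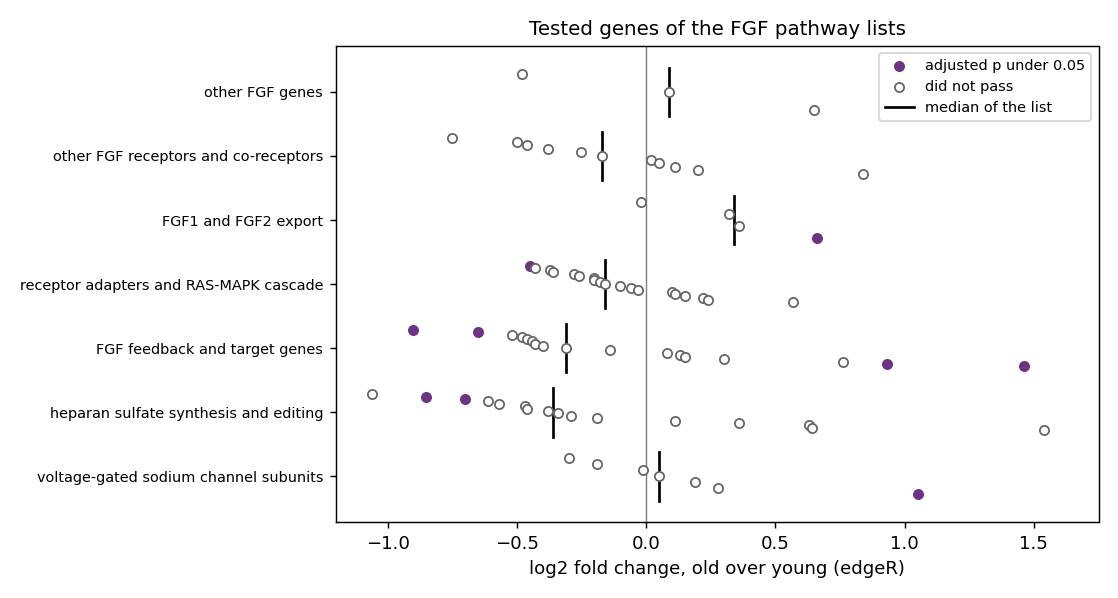
Log2 fold change of old over young hearts for the tested genes of the 7 pathway lists, 1 point per gene, filled where the edgeR adjusted p was under 0.05, with black bars at the median of each list. Filled points lie on both sides of 0, with Myc at 1.46 and Il17rd at −0.90 in the feedback and target list.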

How the data were processed

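Per the submitters' processing notes the authors used HISAT2, featureCounts of Subread and the build GRCm38.p6; the strand setting, annotation and tool versions were not given in the sources used here. Extraction text in the labels names NRVMs, not heart tissue. Deposited values are unnormalised read counts for each gene. The authors' deposited FPKM values cover 13170 genes. Of 44200 count rows, 571 without a name (0.295% to 0.368% of counts) were left out. Members and lists were chosen with earlier results of these data known. Named genes are all members, the 3 smallest p of each list, the other receptors and homologous factors with counts, genes overlapping a member, the neighbours of Fgfbp3 and its 5 most similar genes. Low counts were removed by filterByExpr, and old was compared with young by edgeR 4.0.16 (R 4.3.3) with TMM, quasi-likelihood F tests and Benjamini-Hochberg adjustment at 0.05. SE is the absolute log2 fold change over the root of F. The fit was tested on simulated data. Alternatives used DESeq2 1.42.0, limma 3.58.1 on log2(FPKM + pseudocount), other filters and scaling, the replicate block and each library left out. Coordinates and exon lengths are from GENCODE M21 (GRCm38); 2 list genes were found by identifier under another symbol. Promoters are from RefSeq on GRCm38.p6. Marker sums, compared by exact two-sided permutation, cannot go below p = 0.1 with 3 against 3. Some genes that the naming rule picks are not reported here.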

Additional observations from a re-analysis of the deposited data

How the results depend on the processing

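Fold changes of Fgfbp3, Fgf13, Fgf16, Fgf18, Fgf1 and Fgf2 stayed below 0 and that of Fgfr1 above 0 in every setting that could be run. Fgf9 was below 0 in 2 of 16. With 1 library left out the log2 fold change ranged from −2.17 to −1.80 for Fgfbp3, −0.64 to −0.49 for Fgf13, −0.52 to −0.40 for Fgf16, −0.37 to −0.15 for Fgf1, −1.05 to −0.36 for Fgf2, −0.93 to −0.15 for Fgf18, 0.40 to 0.61 for Fgfr1 and −0.08 to 0.25 for Fgf9. On log2(FPKM + 1), with and without a minimum mean of 1, it was −1.36 for Fgfbp3 and −0.33 for Fgf16; the pseudocount shrinks ratios of low values. Of all genes, 350 to 2961 were called higher and 184 to 2609 lower with 1 library left out, and 802 higher on log2(FPKM + 1) with a mean of at least 1. Pathway genes called higher were 4 in the main edgeR fit, 11 with no filter, 7 with DESeq2 and 2 to 12 with 1 library left out. Over all genes 1257 were called higher in the main fit, 1675 with no filter (23978 tested) and 1543 with DESeq2. Pathway genes called lower were 5 in the main fit, 3 on log2(FPKM + 1) and on log2(FPKM + 0.1), and 0 to 24 with 1 library left out. Over all genes 917 were called lower in the main fit, 774 on log2(FPKM + 1) and 758 on log2(FPKM + 0.1). Counted after the data were seen, the members called higher were 0 on the FPKM scales and with the replicate block. Over all genes 802 to 862 were called higher on the FPKM scales and 1038 with the replicate block. With 1 library left out they were 1 without old 1 and 0 without any other library. The members called lower were 3 without old 1, 2 without old 2 and 1 without old 3 or any young library. Calls over all genes shifted too. They were 2961 higher and 2609 lower without old 1, 938 and 603 without old 2, and 598 and 321 without old 3. Without any one young library they were 350 to 393 higher and 184 to 226 lower. The cause of these shifts was not tested. Old and young libraries share only replicate numbers: deviations of same-numbered libraries correlated with r of −0.0867, −0.0697 and 0.0332. With the replicate block 1038 genes were called higher and 736 lower, and the call of Gab1 (edgeR adjusted p = 0.0812) ended. Counts of 0 to 16 per library limit Fgf2, Fgf12 and Fgfbp1.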
